A study of Mus musculus with 2 samples.

Results

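Levels of 34 chaperone and stress genes, of 32246 gene symbols counted, were described in single cells of mouse subcutaneous white fat. They were chosen by symbol and form a heat shock list of 14 genes, whose products fold proteins in the cytosol and mitochondria, and an ER stress list of 20 genes, which serve folding in the endoplasmic reticulum (ER) or the signals sent when folding fails there. All 34 symbols were found. Ddit3 had a pair of feature identifiers, whose counts were added.

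The study asked how PAQR4 affects the pool of adipose progenitors. The Paqr4 transgenic library came from mice that carry a Paqr4 transgene, and the WT library from mice without it; the labels give no other agent, and no promoter, age or sex. Both were made by the 10x Genomics 3′ method from CD45-negative cells of collagenase-digested fat sorted by flow cytometry, and cells of 3 mice were pooled; the series text leaves unsaid whether per genotype or in total. Each genotype had 1 library, so no difference between genotypes was tested and no p-value is given. Intervals are 95% intervals for counting error only, and do not cover how mice or cells vary.

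The transgenic library gave 1521 cells with a median of 18711 unique molecular identifiers (UMIs, each counting 1 captured transcript), and the WT library 1328 cells with a median of 21612.5. No cell barcode was shared between them. Progenitors numbered 1349 in the transgenic and 1090 in the WT library, with all 8 progenitor markers present. Xist had a UMI in 0.222% of transgenic and 93.9% of WT progenitors, and Ddx3y in 76.6% and 2.02%, so genotype, sex-linked transcripts and library cannot be told apart. Paqr4 itself had 250 UMIs in transgenic and 187 in WT progenitors. The CD45 gene Ptprc was at 0 UMIs in WT progenitors, but 1 transgenic cell among them carried immunoglobulin transcripts and is described with the ER genes. Small clusters led by haemoglobin or pancreatic enzyme genes were set apart from the progenitors.

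Heat shock proteins bind unfolded chains. HSP70 proteins (Hspa1a, Hspa1b, Hspa8) take help from J-domain partners (Dnaja1, Dnaja4, Dnajb1, Dnajb4), HSP90 (Hsp90aa1, Hsp90ab1) matures signalling proteins, and the factor HSF1 switches on the inducible members within minutes of heat or other stress. In the ER, the HSP70 relative BiP (Hspa5), GRP94 (Hsp90b1), calreticulin (Calr) and disulphide isomerases (Pdia3, Pdia4, Pdia6) fold secreted proteins, of which fat progenitors make a lot as collagen. The unfolded protein response senses overload there through ATF6, IRE1 (Ern1, which splices Xbp1) and PERK, whose arm runs through Atf4 and Ddit3 (CHOP). Enzymatic digestion of tissue is known to induce heat shock and immediate early genes in cells while they are being isolated.

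Promoter sequences are shown because the lists have different known control elements. Windows of 250 bases before the start site (RefSeq, GRCm38.p6) were available for 29 of the 34 genes, and Hspa8, Hsp90aa1, Hsp90ab1, Atf6 and Manf had no entry. The motifs were searched with the expression values known, on both strands. The ER stress element, CCAAT and CCACG with 9 bases of any kind between them, bound by ATF6 with NF-Y, lay before 5 of 18 ER stress genes, 0 of 11 heat shock genes and 0.13% of 27025 symbols. Capitals below mark the element, in the gene's own direction.
Hspa5, chr2:34772021-34772047: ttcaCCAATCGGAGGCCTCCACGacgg
Hsp90b1, chr10:86705634-86705660: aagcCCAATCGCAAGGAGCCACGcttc
Hsp90b1, chr10:86705529-86705555: agtgCGTGGTGAGGCACGATTGGtgag
Calr, chr8:84847071-84847097: aacgCGTGGTCGACCCTCATTGGccca
Pdia6, chr12:17266487-17266513: gagaCCAATGAAAGGCGGCCACGgcgt
Creld2, chr15:88819516-88819542: ttctCGTGGCGAGCCTCAATTGGtcca
Hspa5 and Pdia6 carry the element forward, Calr and Creld2 in reverse, and Hsp90b1 once each way, all within positions -212 to -47 from the start site. Hspa5, Pdia6 and Creld2 lie on the plus strand and Hsp90b1 and Calr on the minus strand. The Hspa5 match overlaps an annotated exon (GENCODE), and the others do not.

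Heat shock factor binds inverted repeats of GAA. A pair of units, TTC and GAA or GAA and TTC with 2 bases between them, occurred before 9 of 11 heat shock genes, 1 of 18 ER stress genes (Asns) and 14.5% of all symbols. The longer run of 3 such alternating units was found before Hspd1 and Hspe1, which share a promoter between them, and before 0.514% of symbols; each longer run contains the pair, and both genes are read from the same stretch. Capitals mark the pair, or the 3 units for Hspe1.
Hspa1a, chr17:34972249-34972264: gctgGAAGATTCctgg
Hspa1b, chr17:34959331-34959346: gctgGAAGATTCctgg
Hsph1, chr5:149636358-149636373: atctTTCTCGAAggct
Hspb1, chr5:135887798-135887813: aagaGAAGTTTCcaga
Hspb1, chr5:135887818-135887833: ggcaGAACCTTCctgg
Dnaja4, chr9:54699465-54699480: ccgcGAACGTTCtggg
Dnaja4, chr9:54699503-54699518: ggcgGAACCTTCcgcc
Hspe1, chr1:55088055-55088075: tccgTTCTAGAACCTTCcgga
Hspa1a and Hspa1b, neighbours on the minus strand of chromosome 17, hold the same letters at the same distance, positions -104 to -97 from the start site. Hsph1 also lies on the minus strand, and Hspb1, Dnaja4 and Hspe1 lie on the plus strand. The matches of Hsph1 and Hspe1 and the second one of Dnaja4 overlap annotated exons. Hspa1a and Hspa1b are near-identical genes whose reads may be split between them, so their sum is also used below. The 3 other heat shock genes with a pair were Hspd1, Dnaja1 and Dnajb4. The second ER element, ATTGG and CCACG with 1 base between them, occurred before Herpud1 (0.037% of symbols), and the amino acid response element TGATGNAAN, bound by ATF4 and its partners, before Herpud1, Chac1 and Asns (3.89% of symbols); in Asns it overlaps the heat shock pair. A match of letters does not show that a factor binds there.

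Levels are given as UPM, UMIs per 1000000 UMIs of the class. In progenitors the heat shock genes summed to 7718 UPM in the transgenic and 6297 UPM in the WT library, and the ER stress genes to 3519 and 2816 UPM. A 3′ UMI counts a transcript once whatever its length. Among HSP70 and HSP90 genes, Hspa1b stood at 1222 UPM in transgenic and 892 UPM in WT progenitors and Hspa1a at 688 and 505 UPM. The constitutive Hspa8 stood at 1164 and 1251.5 UPM, so the heat-inducible pair together exceeded it in both libraries with all progenitors pooled. In WT cells of cluster 1, a state described further on, the order was reversed (pair 541 UPM, Hspa8 1414 UPM). Hsp90aa1, the inducible HSP90, had 1099 and 788 UPM, and the constitutive Hsp90ab1 1067 and 883 UPM. The 14 heat shock genes lay between 36.7 UPM (Dnaja4) and 1222 UPM in the transgenic library, and between 14.3 and 1251.5 UPM in WT.

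The ER stress list was led by Hspa5, at 765 UPM in transgenic and 552 UPM in WT progenitors, and Hsp90b1, at 681 and 537 UPM. Its stress effectors were far lower. Ddit3, the CHOP factor that rises under prolonged ER stress, stood at 29.8 UPM in transgenic and 33.3 UPM in WT progenitors. Trib3, a pseudokinase induced by CHOP and ATF4, had 2.60 and 1.72 UPM. Chac1, a glutathione-degrading target of ATF4, had 4 UMIs in 1 transgenic cell, the immunoglobulin-rich one described later. Chac1 had 0 UMIs in WT progenitors, where 3 UMIs would equal 0.120 UPM. Trib3 and Chac1 stayed below 10 UPM, the level required in at least 1 library for a ratio; all other 32 genes passed it.

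**Figure D1:**
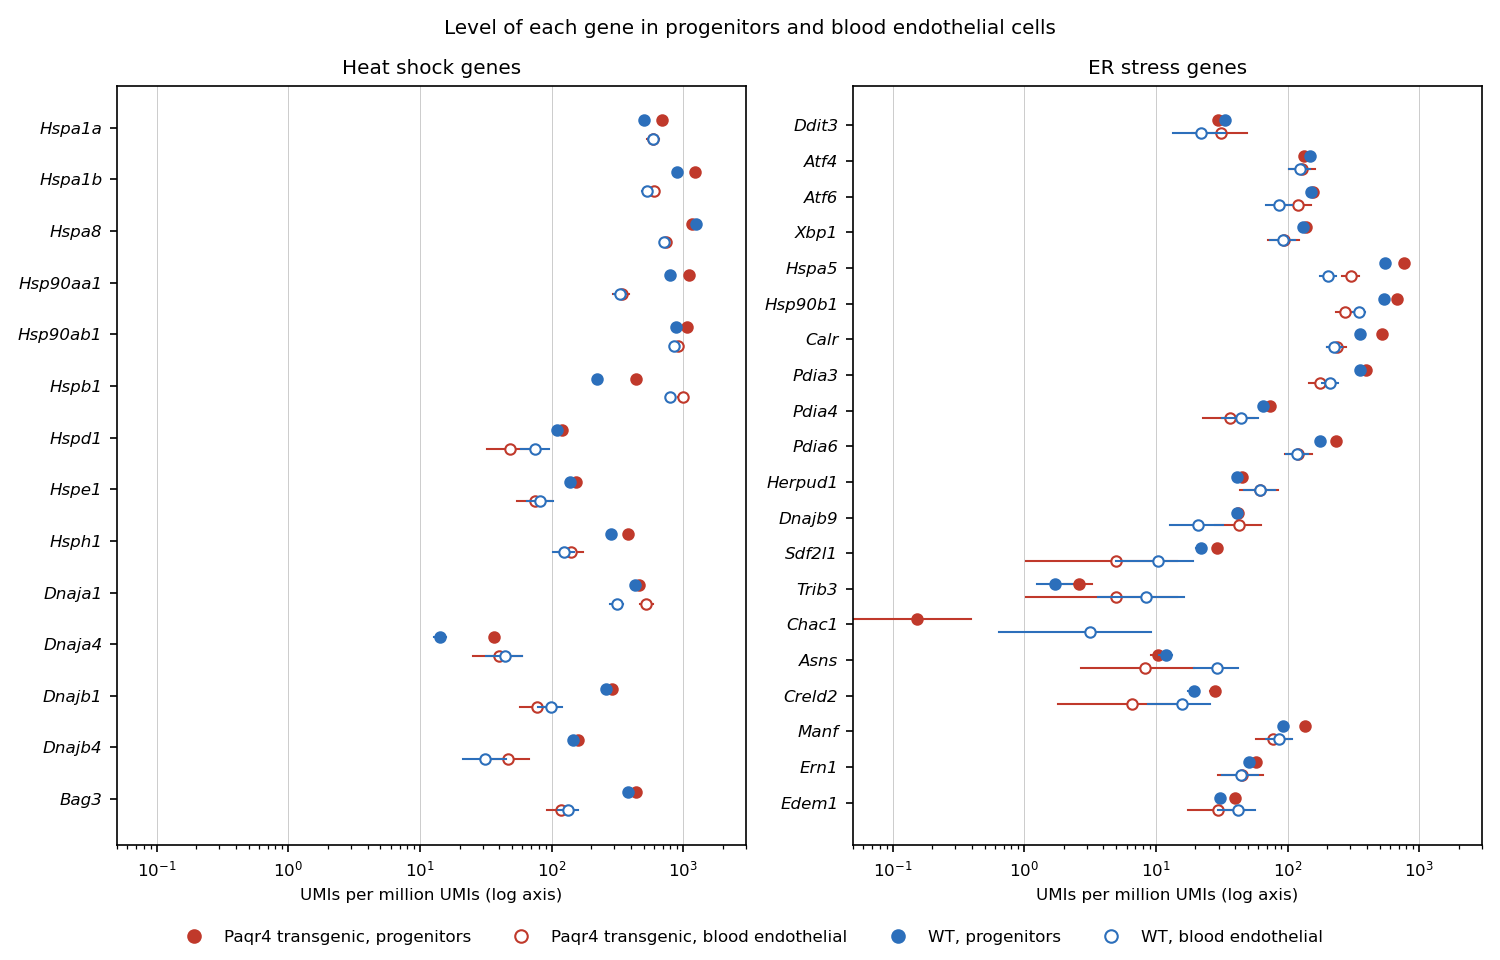
Level of each gene in UPM (log axis) in progenitors (filled) and blood endothelial cells (open), Paqr4 transgenic red and WT blue, with 95% counting intervals; Chac1 is not drawn where it had 0 UMIs. ER chaperones such as Hspa5 (765 and 552 UPM in progenitors, 302 and 203 UPM in endothelial cells) lie lower in endothelial cells, whereas Hspb1 (436 and 221 UPM, 988 and 790 UPM) lies higher.

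Between the libraries, most genes of both lists were higher in the transgenic library, by small amounts. The heat shock list had a median log2 ratio of 0.25 (0.21 to 0.28, medians of the genes' interval bounds), with 13 of 14 genes above 0, and 18 ER stress genes had a median of 0.17 (0.09 to 0.28), with 15 above 0. Over all 8737 genes at 10 UPM or more the median was 0.10 and 68.3% lay above 0. At 1.5-fold or more, 2 heat shock genes and 0 ER stress genes were higher in the transgenic library, against 3.04% of all genes, and 0 of either list were lower, against 1.80%. No test stands behind these counts.

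The heat shock genes past 1.5-fold were Dnaja4 and Hspb1. Dnaja4, a J-domain partner of HSP70, stood at 36.7 UPM in transgenic and 14.3 UPM in WT progenitors, a 2.57-fold difference (2.27 to 2.91; log2 1.36). Hspb1, the small heat shock protein HSP27 that holds unfolding proteins and stabilises actin, stood at 436 and 221 UPM (1.98-fold, 1.91 to 2.04; log2 0.98). Hspb1 was also found in more cells, with a UMI in 66.9% of transgenic and 46.1% of WT progenitors, whereas Dnaja4 was found in about as many, 256 of 1349 transgenic and 192 of 1090 WT cells.

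The inducible chaperones came next. Hsp90aa1 had a log2 ratio of 0.48 (0.45 to 0.51), Hspa1b 0.45, Hspa1a 0.45, and Hsph1, an HSP70 exchange factor at 382 UPM in transgenic and 281 UPM in WT progenitors, also 0.45. Hsp90ab1 had 0.27 and Bag3, which links HSP70 to autophagy, 0.22 (439 and 378 UPM). The other 6 heat shock genes differed less. Mitochondrial Hspe1 (154 and 138 UPM) and Hspd1 (119 and 110.0 UPM), the chaperonin pair that shares a promoter, had 0.16 and 0.11. Of the J-domain partners, Dnajb1 (289 and 258.5 UPM) had 0.16, Dnajb4 (159 and 146 UPM) 0.13 and Dnaja1 (463 and 431 UPM) 0.10. Hspa8 alone was lower in the transgenic library, at -0.11 (-0.13 to -0.08). With equal weight for each of 6 progenitor states, described further on, Hspa1a had 0.22, Hspa1b 0.32, Hsph1 0.36, Hsp90aa1 0.34, Bag3 0.07, Hspe1 0.06, Dnaja1 0.04 and Dnajb1 0.03. The state where Hspa1a was highest held 530 of 1349 transgenic and 329 of 1090 WT progenitors.

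In the ER list, the folding factors named in this paragraph, with Edem1, had ratios of 0.15 to 0.57. Dnajb9, also a partner of BiP (0.03), and Herpud1, which like Edem1 acts in degradation (0.13), are given below. The grouping therefore does not follow role alone. Calr stood at 524 UPM in transgenic and 353 UPM in WT progenitors (log2 0.57, 0.53 to 0.61), Manf, a secreted factor that binds BiP, at 136 and 91.9 UPM (0.56), and Creld2, a folding factor induced by ER stress, at 27.9 and 19.3 UPM (0.53). Hspa5 had 0.47 (0.44 to 0.50), Sdf2l1, a partner of BiP, 0.41 (29.2 and 22.0 UPM), Pdia6 0.39 (232 and 177 UPM) and Hsp90b1 0.34 (0.31 to 0.38). Edem1, which routes misfolded glycoproteins to degradation, had 0.37 (39.8 and 30.9 UPM). Pdia4 (73.9 and 65.6 UPM) had 0.17 and Pdia3 (396 and 357 UPM) 0.15.

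Genes that sense or relay ER stress, and their targets Herpud1, Dnajb9 and Asns, had ratios of -0.19 to 0.18. The sensor genes had ratios of 0.18 (Ern1, 57.5 UPM in transgenic and 50.9 UPM in WT progenitors) and 0.05 (Atf6, 155 and 149.5 UPM; -0.01 to 0.11). Xbp1 stood at 139 and 132 UPM (0.07); 3′ counts do not show its splicing. Herpud1, which acts in the degradation of misfolded ER proteins, stood at 45.3 and 41.4 UPM (0.13), and Dnajb9, a J-domain partner of BiP, at 42.1 and 41.2 UPM (0.03, -0.09 to 0.16). On the PERK arm, Atf4 at 133 and 148 UPM had -0.16 (-0.22 to -0.09), Ddit3 -0.16 (-0.30 to -0.02) and Asns, the asparagine synthetase induced by ATF4, -0.19 (-0.43 to 0.05; 10.4 and 11.9 UPM). With all ratios centred on the median of all genes, Atf6, Xbp1 and Dnajb9 turned below 0 (Xbp1 -0.03), and thinning cells to 5000 UMIs put Ddit3 at 0.0009. The 5 genes shown above with the ER stress element had ratios of 0.34 to 0.57, but Sdf2l1 (0.41) and Edem1 (0.37), whose windows hold no match, lay in the same range, and Herpud1, with the shorter element, had 0.13.

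**Figure D2:**
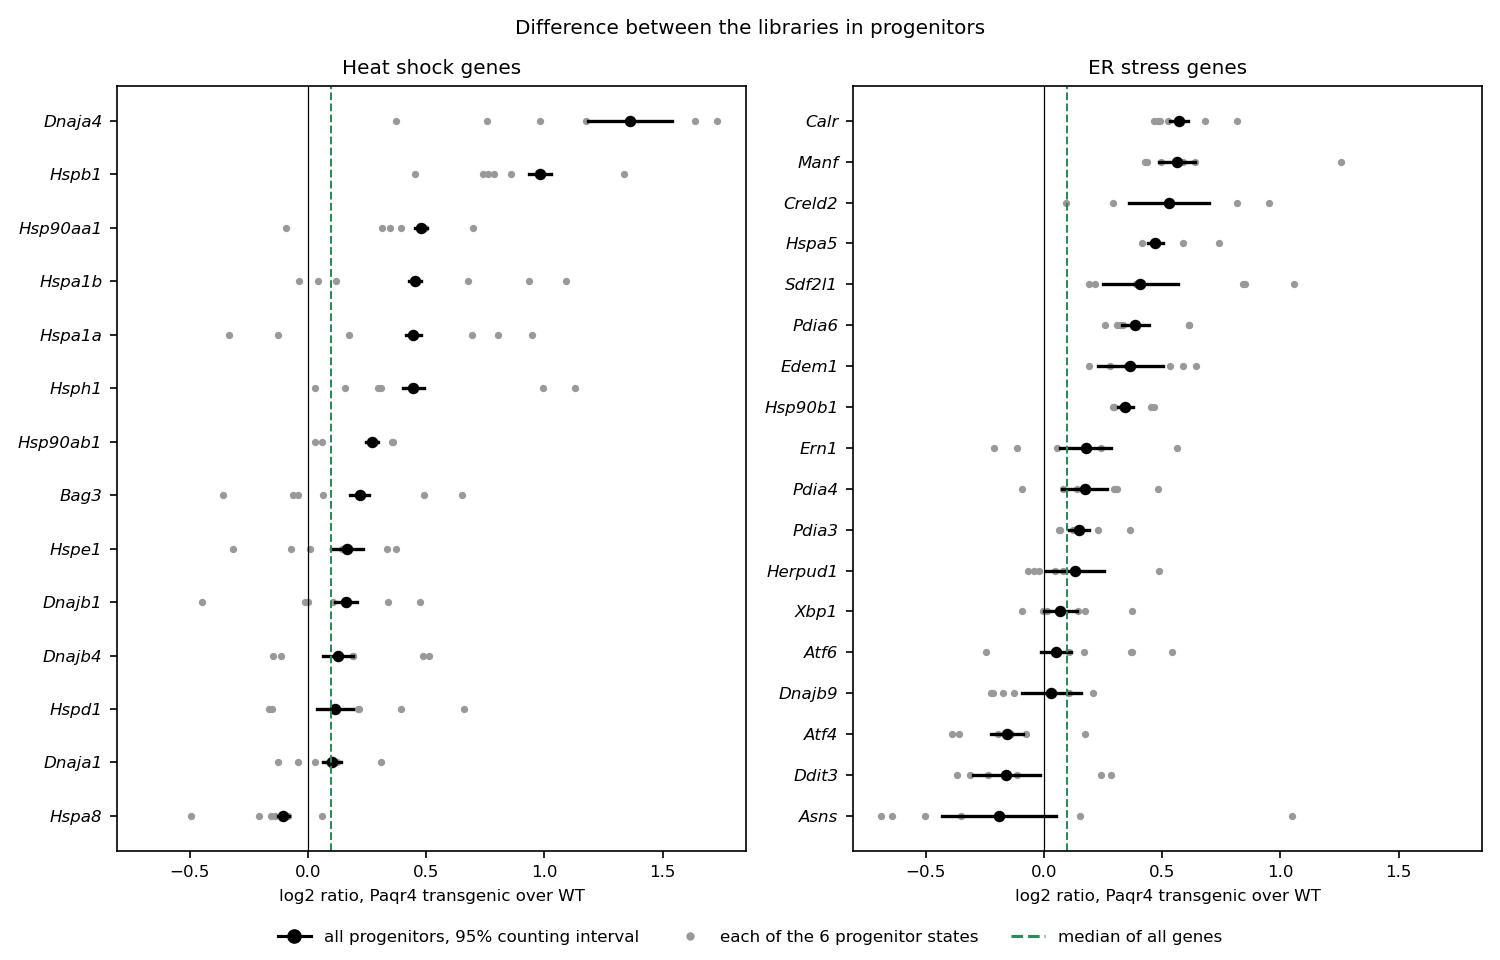
Log2 ratio of the level in Paqr4 transgenic over WT progenitors for the 32 genes at 10 UPM or more: black points with 95% counting intervals for all progenitors, grey points for each of 6 progenitor states, dashed line for the median of all genes (0.10). Dnaja4 (1.36) and Hspb1 (0.98) lie farthest right; the states of Hspa1a run from -0.34 to 0.95, those of Hsp90b1 from 0.29 to 0.47.

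Other genes of these pathways were counted in the same way. Of 33 further heat shock and co-chaperone genes at 10 UPM, 29 were above 0 with a median of 0.16, and 2 passed 1.5-fold upward and 0 downward: Hspa4l, an HSP110 relative at 42.3 UPM in transgenic and 26.3 UPM in WT progenitors (0.69), and the small heat shock protein Cryab at 86.4 and 54.2 UPM (0.67). Hspb8 (76.4 and 60.1 UPM) had 0.35 and Hspa14 (27.5 and 22.0 UPM) 0.33. Of 30 further ER folding and unfolded protein response genes, 25 were above 0 with a median of 0.22 and 0 passed 1.5-fold in either direction. Dnajb11, the J-domain partner of BiP, had the largest ratio (61.2 and 42.8 UPM, 0.51), and the collagen chaperone Serpinh1 stood at 806 and 624 UPM (0.37). Selenos (102 and 76.6 UPM) had 0.42 and Fkbp2 (84.4 and 65.2 UPM) 0.37. Of 19 further integrated stress response genes, 12 were above 0 with a median of 0.09. The serine synthesis genes Psat1 (12.7 and 5.89 UPM, 1.11) and Phgdh (11.8 and 8.05 UPM, 0.55) led them, followed by the tRNA synthetase genes Aars (0.47) and Gars (0.43), and Psat1 was the only gene past 1.5-fold in either direction. Of the immediate early genes, 9 of 22 were above 0, with a median of -0.07, and Myc (142 and 217 UPM, -0.62), Zfp36 (1615 and 2425 UPM, -0.59) and Ier5 (176 and 264 UPM, -0.59) were lower by 1.5-fold or more. Fosb came next, at -0.42. Their direction varied by class: 20 of 22 were above 0 in the progenitor state led by Pi16 and Dpp4 and 17 of 22 in blood endothelial cells, against 4 to 9 of 22 in the other 5 progenitor states.

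Progenitors fell into 6 clusters, called states here, made without any gene of the chaperone or pathway lists among the variable genes; genes that vary together with them were still used. An Icam1-like state (cluster 0) held 530 transgenic and 329 WT cells, and Hsph1, Hspa1b and Hmox1 were among its 10 top genes. A state named by no marker list and led by Il6, Cxcl10, Tfpi2 and Adamts4 (cluster 1) held 211 and 269 cells. Dpp4-like states were led by Pi16 and Dpp4 (cluster 2; 240 and 160 cells) and by Sema3e, Ccl2, Cd55 and Cxcl2 (cluster 3; 159 and 216 cells). An F3-like state (cluster 5) held 91 and 74 cells, and a state led by Itgbl1 and Tgfbi (cluster 6) 118 and 42 cells.

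Hspa1a, Hspa1b, Hsph1, Dnajb1 and Hspb1 spanned 2.86-fold to 4.89-fold over the states, and the 6 lumenal ER chaperones 1.07-fold to 1.46-fold. These heat shock genes were picked for spans of 2-fold or more in both libraries, and the ER chaperones by role. The gap between the groups therefore follows in part from that choice, and spans of other genes are given below. Hspa1a and Hspa1b summed were highest in the Icam1-like state, at 2743 UPM in the transgenic and 2580 UPM in the WT library, and lowest in cluster 1, at 868 and 541 UPM. Hspa1a spanned 3.41-fold over the 6 transgenic states and 4.89-fold over the WT states, and Hspa1b 3.03-fold and 4.71-fold. Both libraries had the same highest and the same lowest state for both genes.

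Hsph1 spanned 3.60-fold in the transgenic and 4.33-fold in the WT states, with 547 and 535 UPM in the Icam1-like state. In cluster 1 it stood at 152 and 124 UPM, the lowest transgenic state. Its lowest WT state was cluster 6, at 123.5 UPM. Hspb1 spanned 3.17-fold and 3.35-fold and was lowest in cluster 1 in both libraries (179 and 107 UPM). It was highest in cluster 2 (569 UPM) in the transgenic and in cluster 6 (360 UPM) in the WT library. Dnajb1, the J-domain partner that rises with heat, spanned 2.86-fold and 3.68-fold, but its lowest level was in cluster 2 (152 and 110 UPM), below cluster 1 (246 UPM in each library). The other heat shock genes at 50 UPM or more varied less: Hsp90aa1 spanned 1.88-fold and 1.83-fold, Bag3 1.90-fold and 2.64-fold, Hspa8 1.98-fold and 1.86-fold, Dnajb4 1.70-fold and 1.44-fold, and the constitutive Hsp90ab1 1.32-fold in each library. Dnaja4, below 50 UPM, spanned 3.83-fold and 3.22-fold.

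Hsp90b1 lay between 646 and 713 UPM in the 6 transgenic states, a 1.10-fold span. In the 6 WT states it lay between 511.5 and 552 UPM, a 1.08-fold span. The ranges did not overlap between libraries, but the share of all genes with such ranges was not counted. By a looser measure, 20.1% of 3607 genes at 50 UPM or more were higher in the transgenic library in all 6 states. Without the immunoglobulin-rich cell, described further on, Hsp90b1 stood at 627 UPM in transgenic cluster 2. Pdia6 spanned 1.07-fold and 1.27-fold, Calr 1.13-fold and 1.35-fold, and Hspa5 1.35-fold and 1.46-fold. The sensor genes varied more: Atf6 spanned 2.13-fold and 2.88-fold, highest in cluster 1 (228 and 212 UPM) and lowest in cluster 2 (107 and 73.5 UPM), and Ern1 1.999-fold and 2.62-fold. Atf4 spanned 1.68-fold and 1.93-fold, and of the genes below 50 UPM Herpud1 spanned 1.91-fold and 1.92-fold and Sdf2l1 1.82-fold and 2.87-fold. Hspa5 and Xbp1 were also highest in cluster 1, where the heat shock sum was lowest. The whole ER list spanned 1.08-fold in transgenic and 1.18-fold in WT states, and the heat shock list 1.83-fold and 1.86-fold.

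At 50 UPM or more, 5 of 13 heat shock genes (Hspa1a, Hspa1b, Hspb1, Hsph1 and Dnajb1) and 1 of 11 ER stress genes (Atf6; Ern1 lay just under at 1.999-fold in the transgenic library) spanned 2-fold or more in both libraries, against 28.6% of 3607 genes. The SD of the log2 level over states had a median of 0.36 for the heat shock and 0.13 for the ER stress genes, against 0.27 for all genes. Conversely, 6 of 11 ER stress genes (Hspa5, Hsp90b1, Calr, Pdia3, Pdia6 and Manf) and 3 of 13 heat shock genes (Hsp90ab1, Hspb1 and Hsph1) were higher in the transgenic library in all 6 states, against 20.1% of genes. Below 50 UPM, Edem1, Creld2, Sdf2l1 and Dnaja4 also were, and Ddit3, Herpud1, Dnajb9, Asns, Trib3 and Chac1 were not. The share of all genes was not counted at that level.

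**Figure D3:**
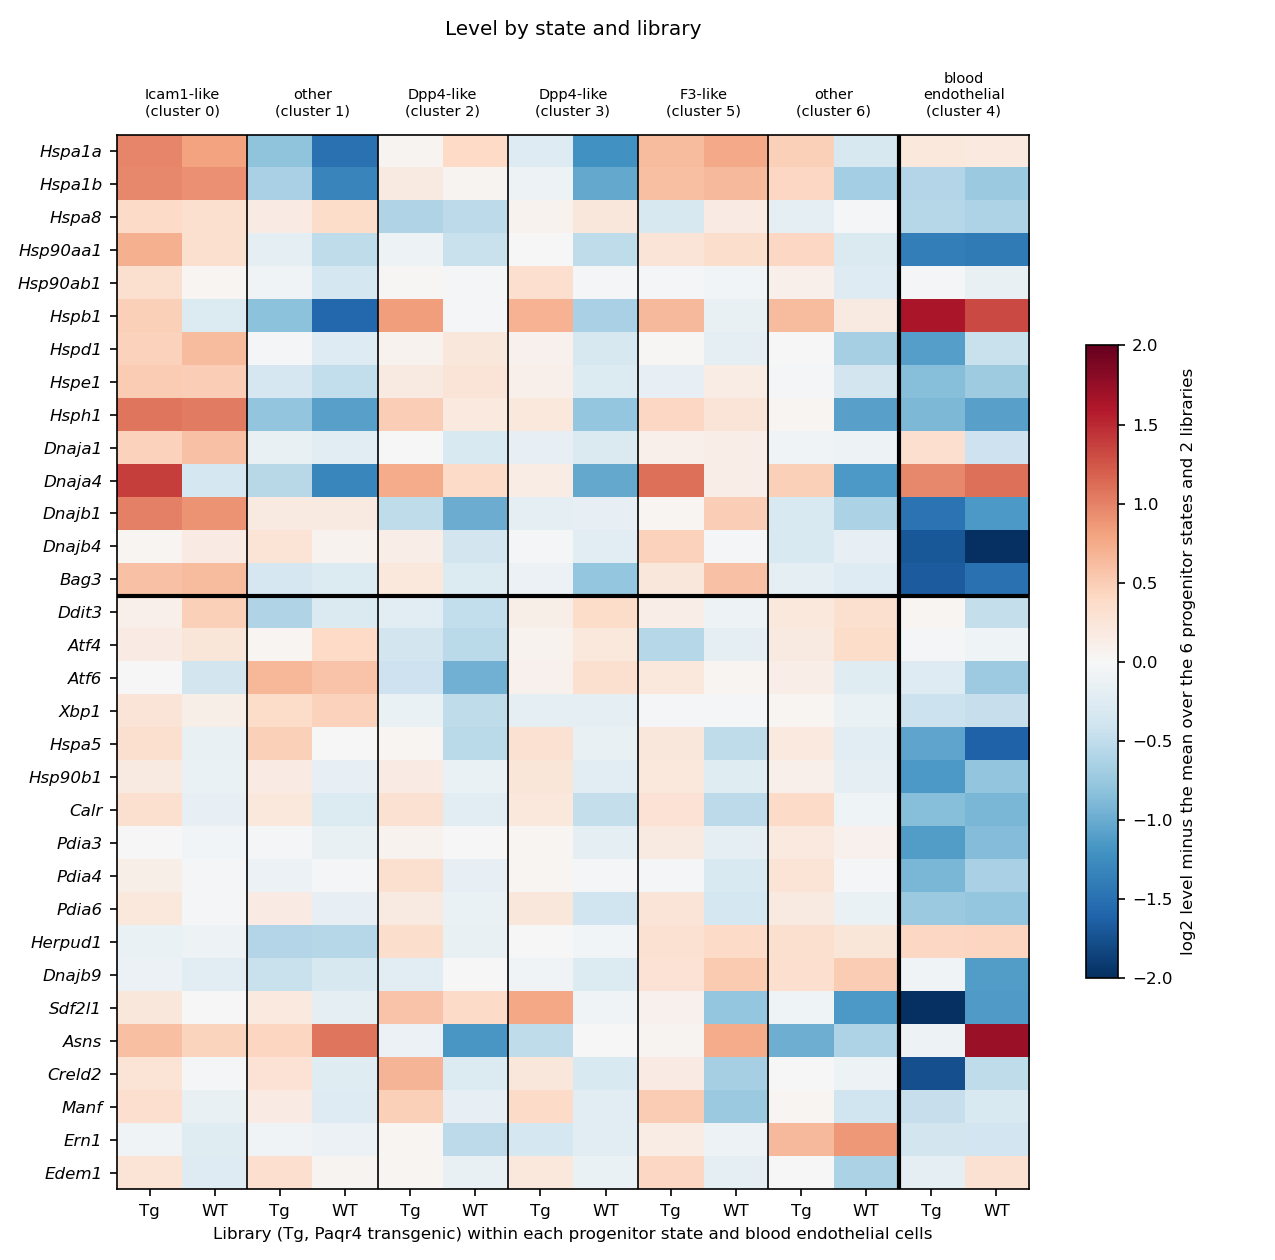
Log2 level of 32 genes minus the mean over the 6 progenitor states and 2 libraries, in each state and in blood endothelial cells, with the transgenic (Tg) column left of WT; heat shock genes stand above the horizontal line. Rows such as Hspa1a and Hsph1 change from state to state (Icam1-like high, cluster 1 low), while Hsp90b1, Calr and Pdia6 change mainly between Tg and WT. Hspa5 changes both between Tg and WT and over the states (1.35-fold and 1.46-fold).

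**Figure D4:**
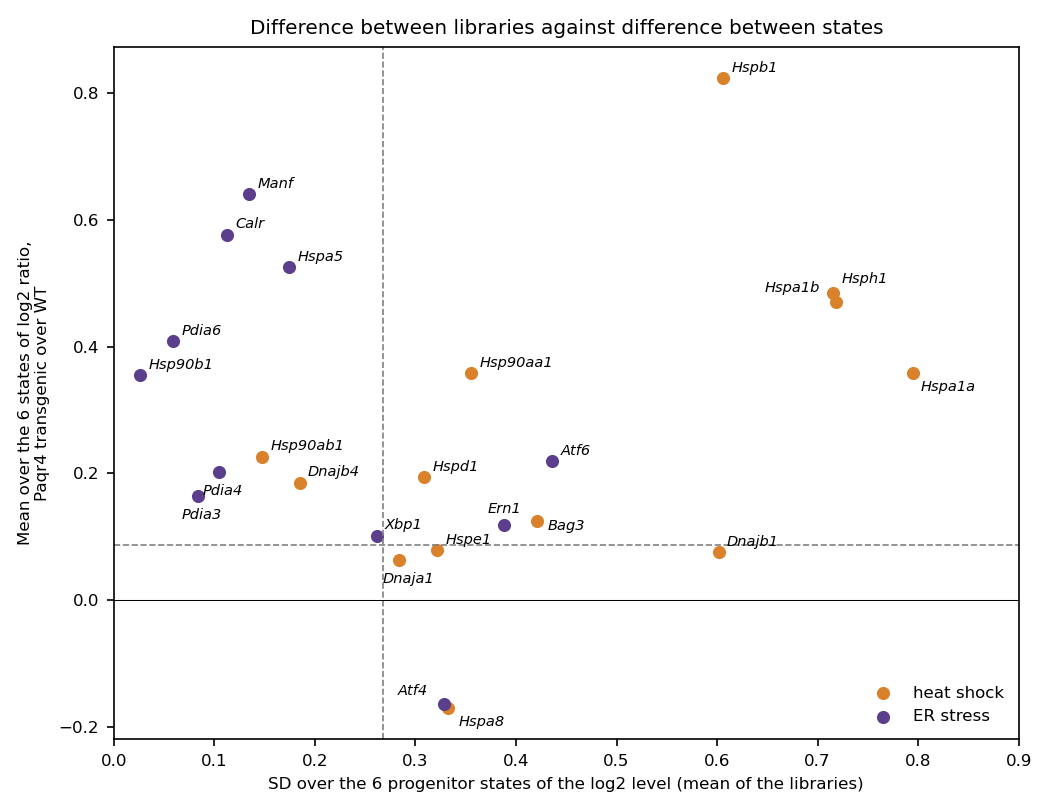
Mean log2 ratio between libraries over the 6 progenitor states against the SD of the log2 level over states, for the 24 genes at 50 UPM or more; dashed lines are the medians of 3607 genes (0.09 and 0.27). Hspa5, Hsp90b1, Calr, Pdia6 and Manf lie upper left, Hspa1a, Hspa1b, Hsph1 and Hspb1 to the right.

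The difference between libraries itself depended on the state for the heat shock genes. Their sum was higher in the transgenic library by 0.43 (log2) in cluster 3 (6615 and 4923 UPM) and 0.46 in cluster 6 (7092 and 5172 UPM), and by only 0.14 in the Icam1-like state (9880 and 8944 UPM). In the F3-like state it was lower, at 7439 and 7865 UPM (-0.08, -0.12 to -0.04). Within the Icam1-like state Hspa1b stood at 1737 UPM in transgenic and 1687 UPM in WT cells (0.04) and Hsph1 at 547 and 535 UPM (0.03), against ratios of 0.45 for both genes over all progenitors. Hspa1a ran from -0.34 in cluster 2 (534 and 674 UPM) to 0.95 in cluster 3 (431 and 223 UPM). Hspa1b was lower in the transgenic library in the F3-like state alone (-0.04, -0.13 to 0.06), and Hsph1 was higher in all 6 states, by 0.03 to 1.13. With each state given equal weight the log2 ratio of the heat shock sum was 0.20, against 0.29 with all progenitors pooled.

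The ER sum was higher in the transgenic library in each state, by 0.27 to 0.49. It stood between 3346 and 3605 UPM in the transgenic states and between 2533 and 2994 UPM in the WT states. These ranges did not overlap, but how often that holds for sums of genes in general was not counted. The sum of the further ER folding genes was also higher in the transgenic library in all 6 states. It ran from 3248 to 3812 UPM in transgenic and from 2922 to 3362 UPM in WT states. So was the sum of the further heat shock genes, at 1867 to 2219 and 1647 to 1897 UPM. Without the immunoglobulin-rich cell, described further on, the ER stress sum in transgenic cluster 2 was 3196 UPM. In the F3-like state Manf reached 153 UPM in transgenic against 64.2 UPM in WT cells (1.26), the widest gap of that gene. Equal weights of the states gave 0.34 for the ER sum, against 0.32.

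Counts of genes higher by 1.5-fold or more in the transgenic library varied by state. Heat shock genes so counted were 2 of 14 in the Icam1-like state (3.56% of all genes there), 4 in cluster 1 (5.20%), 1 in cluster 2 (7.65%), 6 in cluster 3 (7.96%), 2 in the F3-like state (15.2%) and 6 in cluster 6 (14.6%). ER stress genes were 0 of 18 in the Icam1-like state, 0 of 18 in cluster 1, 3 of 17 in cluster 2, 4 of 17 in cluster 3, 7 of 18 in the F3-like state and 2 of 17 in cluster 6. Lower by 1.5-fold or more were 0 heat shock genes in each state and 1 ER stress gene, Asns, both in cluster 1 (12.01 and 18.8 UPM) and in the F3-like state (9.28 and 14.9 UPM). Over all genes, 2.56%, 3.78%, 5.27%, 3.96%, 8.94% and 11.2% were lower by that much, in the same order of states. The smaller states have fewer UMIs, and larger shares of all genes pass the threshold in them.

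1 transgenic cell in cluster 2 stood apart. It held 5432 UMIs of the antibody genes Igkc, Igha and Jchain, of 5469 in all transgenic progenitors and 23 in all WT ones. The 7 B or plasma cell markers, all found in both libraries, summed to 212 UPM in transgenic and 2.12 UPM in WT progenitors. The cell gave 503 ER stress UMIs per 10000, against a median of 32.8 in the other transgenic and 26.6 in the other WT progenitors. Without the cells holding 10 or more such UMIs, 1 in each library, the ER median ratio was 0.16 and the ER sum in cluster 2 was 3196 UPM in transgenic and 2562 UPM in WT cells (log2 0.32, against 0.38 with it). Hsp90b1 in cluster 2 then had a ratio of 0.18, against 0.29, and Herpud1 0.08, against 0.49. Of the 3 ER stress genes past 1.5-fold in cluster 2, Creld2 stayed past it (0.64), while Manf (0.57) and Hspa5 (0.52) did not.

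Immediate early genes, which digestion of tissue can also induce, had another order over the states than the heat shock genes. Their sum was high both in the Icam1-like state (24353 UPM in transgenic and 26909 UPM in WT cells) and in cluster 1 (23423 and 27905 UPM), the states with the highest and the lowest heat shock sums. It was lowest in cluster 2 (11629 and 9044 UPM). What digestion contributed to either group of genes was not tested. The mitochondrial share of UMIs lay between 1.67% and 1.96% in the transgenic states and between 1.73% and 2.40% in the WT states.

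Blood endothelial cells (79 transgenic and 95 WT cells) had a different balance. Their ER stress genes summed to 1802 UPM in the transgenic and 1799 UPM in the WT library, which is 0.512 and 0.639 times the level of all progenitors pooled, and the ratio between libraries was 0.00 (-0.11 to 0.11). Hspa5 stood at 302 UPM (0.394 times the progenitor level) in the transgenic and 203 UPM (0.368 times) in the WT library. Calr stood at 237 and 227 UPM.

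Heat shock genes summed to 5246 and 4707 UPM in endothelial cells, or 0.6797 and 0.747 times the progenitor level, but the members went separate ways. Hspb1 was 2.27 times the progenitor level in the transgenic library (988 UPM) and 3.58 times in WT (790 UPM). Bag3 was 0.268 and 0.355 times (118 and 134 UPM), Dnajb4 0.291 and 0.215 times (46.4 and 31.4 UPM), and Hsp90aa1 0.309 and 0.421 times (340 and 332 UPM). Hsp90ab1 was nearer to it, at 0.863 and 0.964 times. Dnaja1 was the heat shock gene past 1.5-fold upward between libraries (526 and 313 UPM, log2 0.75, 0.52 to 0.98), and Hspd1 the one downward (-0.65), against 15.7% of 9259 genes upward and 19.4% downward. Of 18 ER stress genes, Dnajb9 passed upward (43.1 and 20.9 UPM, 26 and 20 UMIs), and Asns (8.29 and 29.3 UPM, 5 and 28 UMIs), Creld2 and Sdf2l1 passed downward, the last pair on 4 and 15 and on 3 and 10 UMIs. The counting interval of the endothelial ER sum (-0.11 to 0.11) lay below the ratios of that sum in progenitors, 0.32 over all and 0.27 to 0.49 by state; the difference between the classes was not tested.

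Over single cells the lists differed in spread. Each cell was thinned to 5000 UMIs, which left 1303 transgenic and 1065 WT progenitors and dropped 46 and 25. Hspa1a and Hspa1b summed had a median of 5 UMIs per transgenic and 2 per WT progenitor, with 95th percentiles of 33 in both. A UMI was found in 78.9% of transgenic and 69.8% of WT cells, and the 10% of cells with most UMIs held 37.5% and 50.1% of them. The mean was 9.69 in transgenic and 7.39 in WT cells. These cells sit in states in different shares, and within the Icam1-like state the median was 10 in transgenic and 8 in WT cells, with a UMI in 88.0% and 87.2%; in cluster 1 the median was 1 in both, with a UMI in 62.9% and 53.4%.

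The 6 lumenal ER chaperones (Hspa5, Hsp90b1, Calr, Pdia3, Pdia4 and Pdia6) summed to a median of 12 UMIs in transgenic and 9 in WT cells, with 5th to 95th percentiles of 4 to 25 and 3 to 20. They were found in 99.9% and 99.7% of cells, and the top 10% of cells held 21.1% and 20.9% of the UMIs. The whole distribution lay higher in the transgenic library, with upper quartiles of 17 and 13 and lower quartiles of 9 and 7.

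The variance over the mean, which is 1 when only counting varies, had a median of 5.26 in transgenic and 4.91 in WT cells over 13 heat shock genes with a mean of at least 0.25 UMIs, against 1.31 and 1.30 over 11 ER stress genes and 1.31 and 1.32 over all such genes. It was 2 or more for 10 heat shock genes in the transgenic and 12 in the WT library, and for 2 and 0 ER stress genes, against 20.1% and 20.6% of genes. Of the transgenic pair, Hspa5 and Hsp90b1, the second passed only through the immunoglobulin-rich cell (3.06 with it and 1.63 without it). Hspa1b reached 9.51 and 13.1, Hspb1 8.87 and 8.20, and Hsp90aa1 8.20 and 7.37. For a given relative spread, the variance over the mean grows with the mean level. The SD beyond counting, divided by the mean, had medians of 1.14 in transgenic and 1.41 in WT cells over the heat shock genes. It was 0.63 and 0.55 over the ER stress genes, and 0.70 and 0.71 over all such genes, a smaller gap. Hspb1 was found in 46.8% of transgenic and 25.7% of WT cells at this depth, and its 10% of highest cells held 59.3% and 77.4% of its UMIs.

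**Figure D5:**
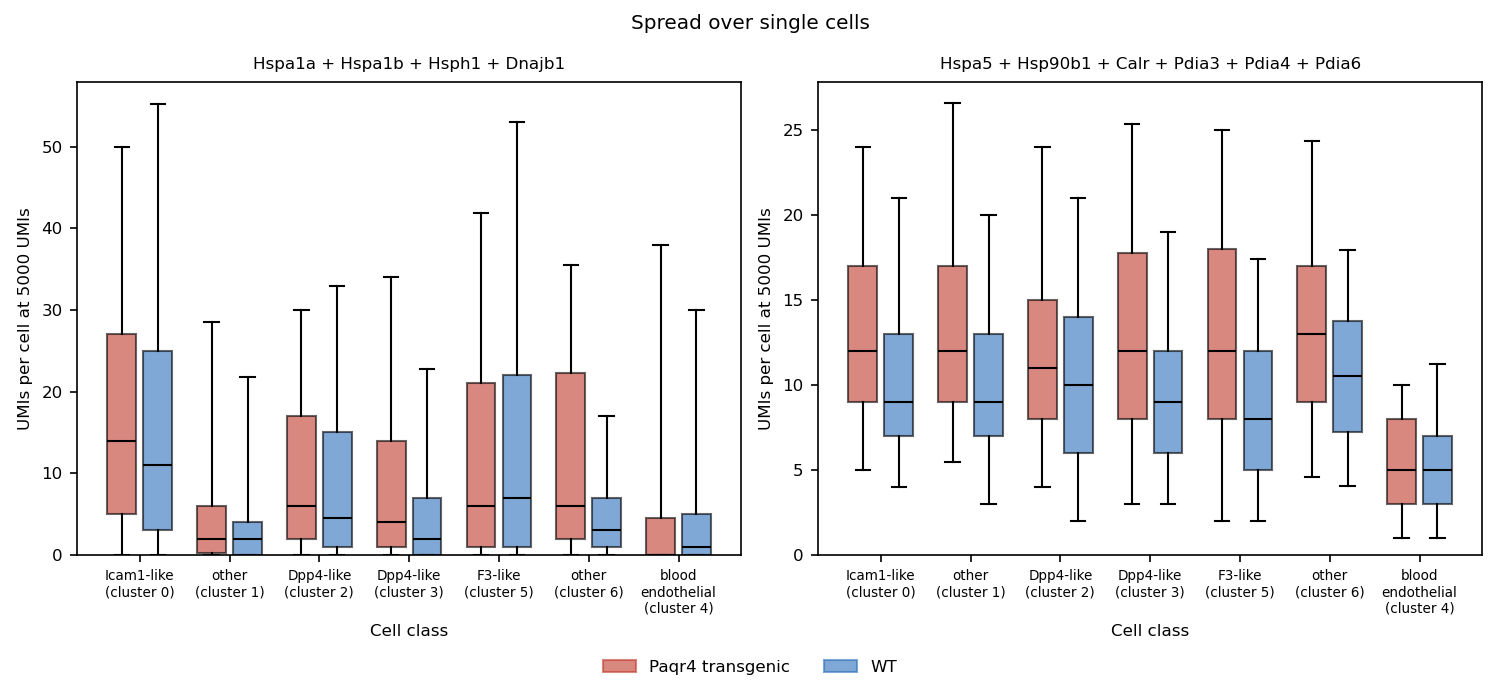
UMIs per cell after thinning to 5000 UMIs for 4 inducible heat shock genes (left) and 6 ER chaperones (right), by progenitor state and in blood endothelial cells, Paqr4 transgenic left of WT; boxes show quartiles, lines medians and whiskers the 5th and 95th percentiles. Heat shock medians run from 14 and 11 UMIs in the Icam1-like state to 2 and 2 in cluster 1, whereas ER medians run from 11 to 13 in transgenic and from 8 to 10.5 in WT states.

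Cells with many UMIs of one inducible heat shock gene tended to have many of the others. Spearman correlations over 1303 transgenic and 1065 WT progenitors, which within a library share depth and preparation, were 0.70 and 0.63 for Hspa1a with Hspa1b, 0.52 and 0.47 for Hspa1b with Hsph1, 0.45 and 0.37 for Hspa1b with Hsp90aa1, and 0.38 and 0.31 for Hspa1b with Dnajb1. The first pair may share reads. Hspa1b with Hspa8 gave 0.37 and 0.24. Hspa1b with Bag3 gave 0.29 and 0.21, and with Hspb1 0.29 and 0.27. Hspa5 with Hsp90b1, a pair of ER chaperones, had 0.30 and 0.16. That was about the value of the Bag3 and Hspb1 pairs in the transgenic library, and below all these pairs in WT. Level differences between states enter these pooled values. Within cluster 1, Hspa5 with Hsp90b1 gave 0.27 in transgenic and 0.10 in WT cells, and Hspa1b with Dnajb1 0.25 and 0.19. In thinned transgenic cells Hspa5 and Hsp90b1 had means of 3.74 and 3.42 UMIs. Those lay below Hspa1b (6.19) but above Hsph1 (1.87) and Dnajb1 (1.43).

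Between the lists, correlations were weak. Their sums gave 0.09 in transgenic and 0.07 in WT progenitors, or 0.12 and 0.07 without thinning. By state they lay between -0.06 and 0.28, the highest in 266 WT cells of cluster 1 (0.03 in the 210 transgenic ones), and in endothelial cells at 0.29 and 0.09. Over all progenitors Hspa1b with Hspa5 gave 0.00 and -0.06. Against the summed immediate early genes, the 4 inducible heat shock genes had 0.33 in transgenic and 0.28 in WT progenitors, and the ER chaperones 0.03 and 0.00. Within classes the relation of inducible heat shock to immediate early genes was stronger in cluster 2 (0.61 and 0.64), the F3-like state (0.55 and 0.66) and endothelial cells (0.53 and 0.64), and lay between 0.15 and 0.37 in the other 4 states. Against the mitochondrial share of the cell the inducible genes had -0.03 and -0.01, and against its total UMIs 0.03 and -0.03.

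Free RNA, read from barcodes with 50 or fewer UMIs, held the same genes. Heat shock genes summed there to 6365 UPM in the transgenic and 4845 UPM in the WT library, and ER stress genes to 2048 and 1474 UPM, so both sums were higher in the transgenic library there as well. Hspb1 stood at 545 and 350 UPM in it and Dnaja4 at 38.9 and 16.9 UPM. Haemoglobin made up 277506 and 308956 UPM of free RNA but 505 and 696 UPM of progenitors. If all haemoglobin in progenitors were free RNA, then 0.182% of transgenic and 0.225% of WT progenitor UMIs came from it. For Hspb1 that gives 0.991 and 0.788 UPM. These values take barcodes with 50 or fewer UMIs to hold free RNA alone, which was not tested. Cells with the most haemoglobin formed a cluster of their own and are not among these progenitors. In blood endothelial cells the same share was 3.62% and 3.22%. Except for Chac1 (0 UPM in WT progenitors and in transgenic endothelial cells), each gene had UMIs in both classes of both libraries. A share of cells with a UMI is therefore a description at its depth and not a share of cells that express the gene.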

How the data were processed

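The authors deposited matrices of counts, that is, unnormalised UMIs per gene and barcode, for all barcodes. Cell Ranger 7.0.0 and mm10 are listed per the submitters' processing notes, but the header of each matrix carries Cell Ranger 4; the version used for counting is therefore uncertain. Counts of features with the same symbol were added (32286 features, 32246 symbols).

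Barcodes with at least 1000 UMIs, 500 genes and at most 10% mitochondrial UMIs were kept. Scrublet, run through scanpy 1.11.5 on each library, called 4 of 1525 transgenic and 1 of 1329 WT cells doublets, which were removed; so low a rate leaves doublets in. The 2000 most variable genes outside the chaperone and pathway lists, 30 components and 15 neighbours were clustered by the Leiden method (leidenalg 0.10.2, resolution 0.5, seed 1). Clusters were named from marker lists, by thresholds chosen after the clusters were seen.

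UMIs were summed per class and library. Levels carry exact Poisson, ratios exact conditional binomial intervals (95%), checked on simulated counts; 0 UMIs were set to a floor of 3. Python 3.11.15, numpy 2.4.6, scipy 1.17.1 and pandas 2.3.3 were used. Genes and lists were chosen with earlier results of these data known. All 34 genes are named, and of each further pathway list up to 4 genes with the largest ratio at 10 UPM or more. With counts of 1 library per genotype no count model was fitted. Total counts were 43084906 in the transgenic and 44145257 in the WT library, and their precision is that of counting only. Promoters are from RefSeq (GRCm38.p6), exons and positions from GENCODE M21. Alternatives tried are given in the closing section.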

Additional observations from a re-analysis of the deposited data

Results flagged for a closer look

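Hspd1, the mitochondrial chaperonin, and Hsp90b1, the ER chaperone GRP94, differed between libraries in opposite directions in endothelial cells and progenitors. Their counting intervals lay on opposite sides of 0. Both were picked for this pattern from the 34 listed genes, and the share of all genes that show it was not counted. The median log2 ratio of all genes at 10 UPM or more also changed sign, from 0.10 in progenitors to -0.04 in blood endothelial cells. In blood endothelial cells Hspd1 stood at 48.1 UPM in the transgenic and 75.3 UPM in the WT library (29 and 72 UMIs; log2 -0.65, -1.32 to -0.01), whereas in progenitors it had 119 and 110.0 UPM (log2 0.11). Hsp90b1 stood at 272 and 350 UPM in endothelial cells (164 and 334 UMIs; log2 -0.36, -0.64 to -0.09) and at 681 and 537 UPM in progenitors (log2 0.34). The difference between the cell classes was not tested, and with 79 transgenic and 95 WT endothelial cells a few cells can move such a ratio.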

How the results depend on the processing

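No paired analysis was possible because each genotype has 1 library. The median log2 ratio of the heat shock genes, 0.25, moved to 0.21 with equal weight of the 6 states, 0.21 with the mean over cells and 0.15 when centred on the median of all genes; the ER median, 0.17, moved to 0.0784 when centred. The other alternatives (clustering with the lists kept, resolutions 0.3 and 1.0, each library alone, 2000 UMIs, 5% mitochondrial UMIs, doublets kept, thinning, totals without haemoglobin and mitochondrial UMIs, each gene without its 5 highest cells, floors of 50 or 0 UPM, without immunoglobulin-rich cells) kept both medians within their intervals. Of 32 genes, 28 kept their direction under all 14 alternatives. Ddit3 turned to 0.0009 after thinning, Xbp1 to -0.0262 when centred, and Atf6 (-0.05 when centred) and Dnajb9 (-0.13 thinned, -0.09 with equal weights, -0.06 centred), whose counting intervals include 0, crossed it. The ratio of the summed heat shock genes, 0.29, moved to 0.315 with the lists kept in clustering or at resolution 1.0, 0.312 with each library alone, 0.316 at 2000 UMIs, 0.321 at 5% mitochondrial UMIs, 0.271 after thinning, 0.196 with equal weights, 0.197 when centred, 0.309 without the 5 highest cells of each gene and 0.253 as a mean over cells. That of the ER stress genes, 0.32, moved to 0.342 with equal weights, 0.225 when centred and 0.305 as a mean over cells. The fold range of the summed lists over progenitor states (geometric mean of the libraries, clusters of 40 or more cells) was 1.85 for heat shock and 1.13 for ER stress genes. For heat shock it moved to 1.94 with the lists kept in clustering, 1.63 and 2.96 at resolutions 0.3 and 1.0, 2.29 with each library alone, 2.12 at 2000 UMIs, 2.31 at 5% mitochondrial UMIs and 1.58 with doublets kept. For ER stress it moved to 1.17, 1.29, 1.17 and 1.19 with the lists kept, at resolution 1.0, at 2000 UMIs and at 5%. The heat shock range exceeded the ER range in each. The fold range was added after seeing the data. The cause of these moves was not tested. With 1 library per genotype, neither the spread between mice nor a library effect can be measured, and counting intervals understate the error of genes whose UMIs sit in few cells.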
